A study of Mus musculus with 16 samples.

Results

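The genes of 9 enzymes that make or use asparagine, glutamine, glutamate, alanine and proline were followed through sorafenib treatment of mouse hepatoblasts. They were Asns, Got1, Got2, Glul, Glud1, Gpt2, Aldh18a1, Pycr1 and Prodh, taken by name from the 40840 genes of the count table, and all 9 were among the 20444 genes with enough reads to be tested (at least 10 counts in total over all libraries). The cells were p53-/-; Myc hepatoblasts, an immortal liver progenitor line that lacks p53, overexpresses Myc and serves as a model of hepatocellular carcinoma (HCC). Cells of this 1 line received sorafenib, a multikinase inhibitor used against HCC, or its vehicle DMSO, for 48 hours or for 7 days, with 4 libraries in each of the 4 groups and 16 in all. Both the loss of p53 and the overexpression of Myc were therefore present in treated and control cells alike, and nothing in the sample descriptions said whether the libraries of a group came from separate cultures, so that the tests measured the spread between these libraries, which may be technical.

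These enzymes sit around glutamate, the main nitrogen carrier of the cell. Asparagine synthetase moves the amide nitrogen of glutamine onto aspartate, and the aspartate transaminases supply that aspartate from glutamate. Glutamine synthetase makes glutamine from glutamate and ammonia and in liver is a property of hepatocytes around the central veins, glutamate dehydrogenase feeds the carbon of glutamate into the tricarboxylic acid cycle, and proline is built from glutamate by Aldh18a1 and Pycr1 and broken down again from the step catalysed by Prodh. Transcription of several of these genes, Asns above all, is a classical output of the amino acid response, in which the factor ATF4 binds composite C/EBP-ATF elements.

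Libraries held between 16586254 and 30828427 assigned counts (median 26360677). One library, replicate 2 of the 48-hour sorafenib group, had lowered counts for genes from Mycbp2 on chromosome 14 onward in genome order, where its median ratio to the other replicates dropped to 0.604 of that for the genes before. No other library showed a step above 0.0685 on the log2 scale. Replicate 4 of DMSO at 7 days also stood apart from its group, with a chi-square per gene of 53.1 to 71.5 against the other replicates, which lay at 1.94 to 3.20 among themselves (1 is sampling noise alone), and results that it moves are given without it as well. At 48 hours with DMSO, replicates 1 and 4 differed from replicates 2 and 3 by 18.7 to 42.7 on that measure, against 5.09 and 5.95 within each of these. Among the enzymes, Got1 and Aldh18a1 on chromosome 19 and Prodh on chromosome 16 lay in the lowered stretch, so their results are given with and without that library, whereas Glud1 lay on chromosome 14 ahead of it. As for the labelled cell type, the hepatoblast genes Dlk1, Krt19, Sox9 and Foxa2 were present in every library, but Hnf4a, a defining liver factor, was at 0 counts in all of them and Alb never exceeded 1 count. Summed over 6 fibroblast markers, dominated by the collagen gene Col1a1, normalized counts ran from 45863 to 48506 with DMSO and from 82349 to 89239 with sorafenib at 48 hours, and from 47051 to 49489 and from 53201 to 55156 at 7 days. The members did not move as one, since Pdgfra had lower means with sorafenib at both times (1528 to 354 and 729 to 153), as did Pdgfrb (1668 to 977 and 718 to 469.8) and the scarce Lum, and Dcn went from 2134 to 2868 at 48 hours and from 4889.7 to 993 at 7 days. The 12 hepatoblast markers moved the other way, from 35004-36371 to 12891-14810 at 48 hours and from 18791-20607 to 6902-7169 at 7 days, the 4 blood cell markers stayed at 58.1 to 89 in sum, and the sum of the 4 endothelial markers lay at 36.8 to 98 with DMSO and 119 to 228 with sorafenib. Kdr alone carried that higher sum (means of 48.5 to 122 and 31.3 to 197), while Tek was lower with sorafenib at both times and Pecam1 and Cdh5 had at most 9 and 2 counts. The part of these shifts in the results below was not tested, and in bulk RNA fewer cells of a type and less RNA per cell cannot be told apart. Trp53 reads numbered 1268 to 4799 per library and Myc reads 4226 to 17797, and whether the Trp53 reads came from outside the deleted part was not tested.

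The stretch upstream of each gene was read for the composite element, written here as TGATGNAA and searched on both strands from 250 bases before to 50 bases after the RefSeq start, taken for all 9 genes from the GRCm38.p6 table and placed on GRCm39 by exact match. It was found in 3 of the 9 promoters, those of Asns, Pycr1 and Got1, against 3.97% of 32851 promoters of the same length. The palindromic cAMP element TGACGTCA, which shares no full match with the first motif, was in 0 of the 9 and in 1.79% of all promoters. The 250 bases before the start of these 3 genes are shown because they are the ones that hold the element, with its 8 letters in capitals and the gene's own strand written 5′ to 3′. A match of letters is a description and not evidence that a factor binds there.
Asns, minus strand of GRCm39 chr6:7693210-7693459: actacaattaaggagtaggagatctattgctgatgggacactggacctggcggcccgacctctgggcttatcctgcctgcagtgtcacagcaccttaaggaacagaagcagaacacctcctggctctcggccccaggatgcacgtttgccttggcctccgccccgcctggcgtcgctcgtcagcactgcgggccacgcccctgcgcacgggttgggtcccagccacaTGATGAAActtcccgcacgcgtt
Pycr1, minus strand of GRCm39 chr11:120534575-120534824: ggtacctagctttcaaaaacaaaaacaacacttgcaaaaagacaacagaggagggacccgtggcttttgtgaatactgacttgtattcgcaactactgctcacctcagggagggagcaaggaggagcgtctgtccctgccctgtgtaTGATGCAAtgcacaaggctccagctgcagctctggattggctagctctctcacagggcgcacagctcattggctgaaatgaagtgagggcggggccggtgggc
Got1, minus strand of GRCm39 chr19:43513045-43513294: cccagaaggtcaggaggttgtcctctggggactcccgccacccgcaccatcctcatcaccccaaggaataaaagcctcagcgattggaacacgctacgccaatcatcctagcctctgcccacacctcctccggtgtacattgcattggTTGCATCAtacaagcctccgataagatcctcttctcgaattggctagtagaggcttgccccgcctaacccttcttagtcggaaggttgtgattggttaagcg
In Asns the element lay at bases -23 to -16 from the start and read TGATGAAA. In Pycr1 it lay at -103 to -96 and read TGATGCAA, and in Got1 at -102 to -95, where the same letters TGATGCAA stand on the opposite strand and appear above as their complement.

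Sorafenib raised most of these transcripts. At 48 hours 6 of the 9 genes rose, 1 (Glul) fell and 2 (Got2 and Prodh) did not pass the test, where 54.6% of all tested genes were called in either direction, 26.9% as higher and 27.7% as lower. At 7 days 6 rose, 2 fell and 1 did not pass, against 56.8% of all genes called, 28.9% as higher and 27.9% as lower. Calls rest on edgeR's quasi-likelihood test, fitted on all 16 libraries, at a Benjamini-Hochberg adjusted p (FDR) under 0.05 over all tested genes. A called change of 1 or more on the log2 scale, up or down, was reached by 4 of the 9 at 48 hours and by 5 of the 9 at 7 days, against 18.0% and 20.6% of all genes, with Glul just short of it at 48 hours. The median log2 fold change of the 9 was 0.81 at both times, where the median of all tested genes was -0.05 at 48 hours and 0.02 at 7 days. The libraries of the DMSO and sorafenib groups did not overlap for 7 of the 9 genes at 48 hours and for 9 of the 9 at 7 days, as for 48.0% and 56.8% of all genes. The 9 were chosen with earlier results of these data known. Their shares and medians beside those of all genes may in part follow from that choice.

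**Figure D1:**
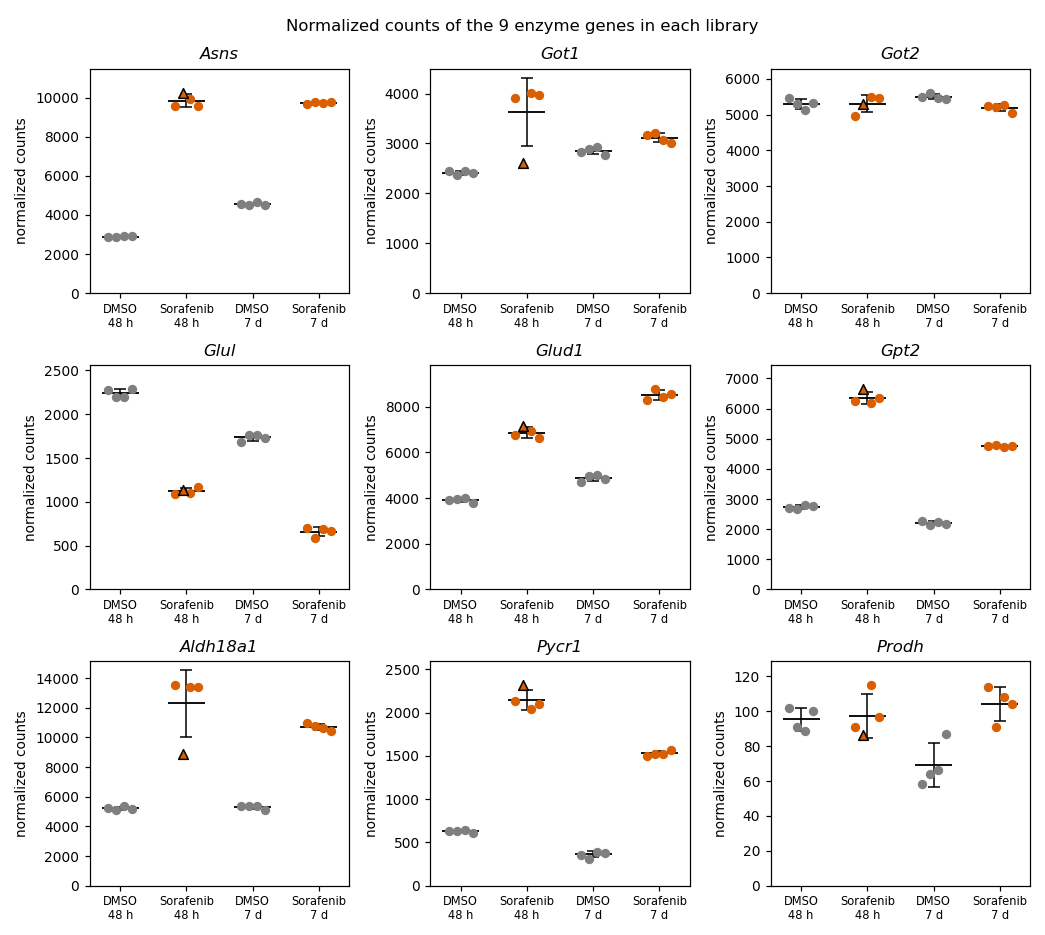
Normalized counts (y axes, starting at 0) of the 9 enzyme genes in each of the 16 libraries, DMSO in grey and sorafenib in orange, with the group mean and SD over 4 libraries in black; the triangle is replicate 2 of the 48-hour sorafenib group. Asns, Glud1, Gpt2, Aldh18a1 and Pycr1 sit higher with sorafenib at both times, Glul sits lower, and the triangle lies apart for Got1 and Aldh18a1.

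Asns (ENSMUSG00000029752, chr6:7671667-7728461, minus strand) encodes asparagine synthetase, the only mammalian enzyme that makes asparagine. With DMSO at 48 hours the normalized counts of the 4 libraries were 2866, 2885, 2928 and 2901, and with sorafenib they were 9578, 10261, 9933 and 9574. At 7 days they were 4585, 4525, 4649 and 4515 with DMSO and 9704, 9774, 9741 and 9761 with sorafenib. The treated libraries thus stood at one level at both times, while the control libraries were higher at 7 days than at 48 hours, and no treated library came near a control library. Asns rose 3.40-fold at 48 hours (log2 fold change 1.76, SE 0.0283, FDR 3.78e-20) and 2.13-fold at 7 days (log2 fold change 1.09, SE 0.0276, FDR 1.52e-17). The response was smaller at 7 days by 0.67 on the log2 scale (interaction -0.67, SE 0.0389, FDR 3.98e-11). With DMSO alone Asns rose from 48 hours to 7 days by 0.66 on the log2 scale (FDR 2.03e-13), and between the sorafenib groups the difference was -0.01 with a 95% interval from -0.07 to 0.04. The 2 times were cultured for different periods, and time and culture batch cannot be told apart.

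The 2 aspartate transaminases exchange amino groups between glutamate and oxaloacetate, Got1 in the cytosol and Got2 in mitochondria, and together they carry the malate-aspartate shuttle. Got1 (ENSMUSG00000025190, chr19:43488188-43513674, minus strand) measured 2449.6, 2365, 2439 and 2403 with DMSO at 48 hours and 3906, 2616, 4018 and 3967 with sorafenib, the low value being the library with lowered counts. Even that library lay above every control of the same time. Got1 rose 1.51-fold at 48 hours (log2 fold change 0.59, SE 0.087, FDR 7.39e-06), and by 0.72 on the log2 scale without that library (FDR 6.78e-27). At 7 days the values were 2824, 2893, 2929 and 2771 with DMSO and 3173, 3210.4, 3060.3 and 3009 with sorafenib, groups that did not overlap. The 7-day log2 fold change of 0.13 (SE 0.0862, FDR 0.231) missed the threshold in the fit on all libraries. It passed at 0.12 (SE 0.027, FDR 7.23e-05) once the lowered library, which widens the gene's estimated spread, was left out. Leaving that library out also lowered the FDR of Asns, outside the lowered stretch, from 3.78e-20 to 8.41e-46 at 48 hours. FDRs with and without it are therefore not directly comparable. The smaller Got1 response at 7 days was called either way (interaction -0.47, FDR 0.00491, and -0.59, FDR 8.89e-18, without the library).

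Got2 (ENSMUSG00000031672, chr8:96590760-96615190, minus strand) stayed close to one level throughout. It measured 5462, 5294, 5118 and 5333 with DMSO and 4966, 5309, 5492 and 5464 with sorafenib at 48 hours, groups that overlapped, for a log2 fold change of 0.00 with a 95% interval from -0.06 to 0.07 (FDR 0.967). At 7 days it measured 5498, 5616, 5466 and 5434 with DMSO and 5243, 5221, 5274 and 5051 with sorafenib. Every treated library was lower there, but the difference was small (log2 fold change -0.08, SE 0.0332, FDR 0.0408), and the call was lost without any 1 of 7 libraries, namely each of the 4 DMSO libraries and replicates 1, 2 and 4 of sorafenib at 7 days (FDR up to 0.119). A stretch at least 95% identical elsewhere in the genome covered 92.3% of the Got2 transcript, so reads of this gene could have been shared with that copy. Within libraries, the log2 ratio of Got1 to Got2 counts went from -1.13 ± 0.044 to -0.57 ± 0.305 (SD, n = 4) at 48 hours and from -0.95 ± 0.032 to -0.74 ± 0.036 at 7 days. Both shifts, 0.56 and 0.21, separated all libraries of the 2 groups (exact two-sided permutation test, p = 0.0286, the smallest that 4 against 4 libraries allow, and 0.0286 after adjustment over 12 ratio tests). Without the library with lowered counts, where the ratio was -1.021, the 48-hour shift was 0.715. At 7 days every treated library was higher for Got1 and lower for Got2, so the separation of their ratio follows from that and adds nothing.

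Glul, which encodes glutamine synthetase (ENSMUSG00000026473, chr1:153775690-153785469, plus strand), was the one enzyme of the 9 that fell at both times by a large factor. Normalized counts were 2273, 2192, 2198 and 2289.9 with DMSO at 48 hours and 1085, 1137, 1100.2 and 1168 with sorafenib. At 7 days they were 1687, 1760.3, 1767 and 1729 with DMSO and 699, 586, 685 and 665 with sorafenib, the lowest levels of the 4 groups. No treated library reached a control library. The level with sorafenib was 0.501 of that with DMSO at 48 hours (log2 fold change -1.0, SE 0.0452, FDR 1.68e-13) and 0.379 of it at 7 days (log2 fold change -1.40, SE 0.0466, FDR 1.12e-15). The fall was larger at 7 days (interaction -0.41, SE 0.0647, FDR 4.32e-05). Glul also fell with time in both arms, by 0.37 on the log2 scale with DMSO (FDR 5.67e-07) and by 0.77 with sorafenib (FDR 1.03e-10). A near-identical copy covered 66.7% of its transcript.

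Glud1, the mitochondrial glutamate dehydrogenase (ENSMUSG00000021794, chr14:34032583-34067642, plus strand), rose by the same factor at both times. It measured 3925, 3969.9, 4010.2 and 3784 with DMSO and 6776, 7163, 6922 and 6611 with sorafenib at 48 hours. At 7 days the values were 4690.3, 4948, 5008 and 4818 with DMSO and 8281, 8777, 8414 and 8548 with sorafenib. All treated libraries were above all controls of either time. The rise was 1.75-fold at each time (log2 fold change 0.81 at both, SE 0.0331 and 0.0328, FDR 3.20e-14 and 2.85e-14), and the 2 responses differed by 0.00 on the log2 scale with a 95% interval from -0.09 to 0.09 (FDR 0.982). Both arms were higher at 7 days than at 48 hours, each by 0.31 on the log2 scale (FDR 1.25e-07 with DMSO and 2.19e-07 with sorafenib). Copies elsewhere in the genome covered 35.6% of the Glud1 transcript, and 717 bases of its exons lie opposite the gene Shld2.

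Because Glul and Glud1 moved apart, their ratio within a library changed more than either gene. The log2 ratio of Glul to Glud1 counts was -0.81 ± 0.066 with DMSO and -2.61 ± 0.075 with sorafenib at 48 hours, and -1.49 ± 0.013 and -3.69 ± 0.148 at 7 days (SD, n = 4). The differences of -1.80 and -2.21 separated all libraries of the groups (exact permutation test, p = 0.0286 for each, and 0.0286 adjusted over the 12 tests). Since Glul was lower and Glud1 higher in every treated library, this separation follows from the genes themselves and the test adds nothing to them.

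**Figure D2:**
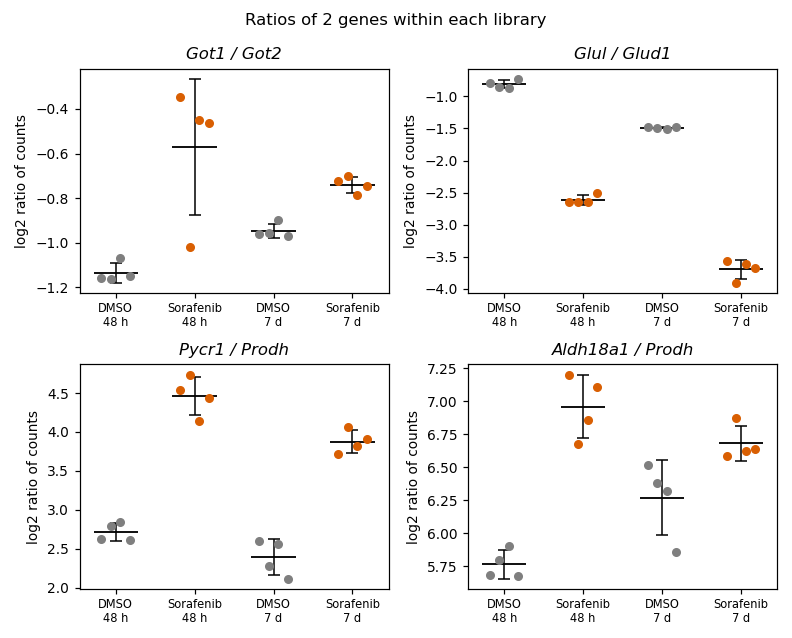
Log2 ratio of the counts of 2 genes within each library (y axes, which do not start at 0) for 4 gene pairs, with group mean and SD over 4 libraries. DMSO is grey and sorafenib orange; in all 4 panels the 4 sorafenib libraries lie on one side of the 4 DMSO libraries of the same time, as for Glul to Glud1, from -0.81 to -2.61 at 48 hours and from -1.49 to -3.69 at 7 days.

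Gpt2, the mitochondrial alanine transaminase that makes alanine from pyruvate with the amino group of glutamate (ENSMUSG00000031700, chr8:86218810-86255577, plus strand), rose more than 2-fold at both times. It measured 2691, 2682, 2790.2 and 2770.4 with DMSO and 6266, 6653, 6201 and 6339.6 with sorafenib at 48 hours. At 7 days the values were 2271, 2151, 2240 and 2181 with DMSO and 4749, 4777, 4709 and 4742 with sorafenib. The groups were far apart at each time and tight within themselves. The rise was 2.33-fold at 48 hours (log2 fold change 1.22, SE 0.0307, FDR 1.62e-17) and 2.15-fold at 7 days (log2 fold change 1.10, SE 0.0308, FDR 7.38e-17). The level fell with time in both arms, by 0.31 on the log2 scale with DMSO (FDR 6.21e-08) and by 0.42 with sorafenib (FDR 6.90e-10). The difference between the 2 responses was -0.12 (FDR 0.0383), a call that was lost on leaving out any 1 of 13 of the 16 libraries, all but replicate 2 of sorafenib at 48 hours and replicates 2 and 4 of DMSO at 7 days (FDR up to 0.152).

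Proline synthesis begins with Aldh18a1, which encodes pyrroline-5-carboxylate synthase (ENSMUSG00000025007, chr19:40538698-40576949, minus strand). Its normalized counts were 5242, 5092, 5349 and 5156 with DMSO at 48 hours and 13518, 8887, 13416 and 13369.6 with sorafenib, the second being the library with lowered counts. At 7 days they were 5393, 5392, 5342 and 5098 with DMSO and 10946, 10734, 10646 and 10458 with sorafenib. Every treated library, the lowered one included, was above every control, and the controls of both times were at one level. The rise was 2.36-fold at 48 hours (log2 fold change 1.24, SE 0.0872, FDR 1.75e-10) and 2.02-fold at 7 days (log2 fold change 1.01, SE 0.0867, FDR 3.55e-09). Without the lowered library the 48-hour value was 1.37 (FDR 6.05e-41). That library also decided whether the response differed between the times, since the interaction was -0.23 (FDR 0.158) with it and -0.36 (SE 0.0356, FDR 4.76e-12) without it. The level with sorafenib was likewise lower at 7 days than at 48 hours by 0.20 on the log2 scale in the fit on all libraries, which did not pass (FDR 0.069), and fell by 0.33 without that library (FDR 1.27e-15).

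Pycr1, the mitochondrial reductase that completes proline synthesis (ENSMUSG00000025140, chr11:120526484-120539269, minus strand), showed the largest response of the 9 at 7 days. With DMSO it measured 630.5, 632, 639 and 614 at 48 hours and 358, 314, 394 and 380.3 at 7 days. With sorafenib it measured 2134, 2317, 2046 and 2097 at 48 hours and 1499, 1523, 1524 and 1572 at 7 days. The groups were far apart at both times, and control and treated cells alike were lower at 7 days. Pycr1 rose 3.41-fold at 48 hours (log2 fold change 1.77, SE 0.0531, FDR 2.43e-16) and 4.23-fold at 7 days (log2 fold change 2.08, SE 0.0561, FDR 4.26e-17), a response that was larger at 7 days by 0.31 on the log2 scale (SE 0.0769, FDR 0.00306). Its level fell with time in both arms, by 0.80 with DMSO (FDR 6.46e-10) and by 0.49 with sorafenib (FDR 1.36e-07). Asns and Pycr1 thus had like responses at 48 hours, and the change from there to 7 days was negative for Asns and positive for Pycr1, each by its own interaction test.

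Prodh, proline dehydrogenase, opens proline breakdown at the inner mitochondrial membrane (ENSMUSG00000003526, chr16:17877575-17908067, minus strand) and was the least abundant of the 9, with 54 to 123 raw counts per library. It measured 102, 91.1, 88.8 and 100.2 normalized counts with DMSO and 91.2, 86.2, 115 and 96.5 with sorafenib at 48 hours, overlapping groups with a log2 fold change of 0.05 and a 95% interval from -0.20 to 0.29 (FDR 0.788). At 7 days it measured 58.4, 64.2, 66.5 and 87.2 with DMSO and 114, 91, 108 and 104 with sorafenib. The 7-day groups did not overlap, and Prodh rose 1.5-fold (log2 fold change 0.58, SE 0.123, FDR 0.000418), and by 0.71 on the log2 scale without replicate 4 of DMSO, the highest control (FDR 4.65e-05). The controls fell from 48 hours to 7 days by 0.46 (FDR 0.00389), whereas the treated groups differed by 0.07 with a 95% interval from -0.17 to 0.31 (FDR 0.685). The response was larger at 7 days (interaction 0.54, SE 0.174, FDR 0.02), 0.48 without the lowered library (FDR 0.0263) and 0.66 without replicate 4 of DMSO at 7 days (FDR 0.00299). With an offset for the lowered stretch in place of leaving the library out, it was 0.41 and no longer called (FDR 0.0639).

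Synthesis and breakdown of proline were set side by side within each library. These ratios of raw counts take no account of transcript length, which does not alter their shift between groups. The log2 ratio of Pycr1 to Prodh counts rose by 1.75 at 48 hours, from 2.72 ± 0.115 to 4.46 ± 0.246, and by 1.48 at 7 days, from 2.39 ± 0.23 to 3.88 ± 0.146 (SD, n = 4). The ratio of Aldh18a1 to Prodh rose by 1.19, from 5.77 ± 0.108 to 6.96 ± 0.238, and by 0.41, from 6.27 ± 0.284 to 6.68 ± 0.133. Prodh and Aldh18a1 lie in the lowered stretch and Pycr1 does not. Without the library with lowered counts, the 48-hour rises were 1.655 for Pycr1 to Prodh and 1.289 for Aldh18a1 to Prodh. The groups did not overlap in any of the 4 comparisons (exact permutation test, p = 0.0286 for each, and 0.0286 adjusted over the 12 tests). For Pycr1 to Prodh at both times and Aldh18a1 to Prodh at 48 hours, the rise of the first gene exceeded the spread of Prodh. Their separation follows from that, and the test adds nothing to it. At 7 days the highest DMSO library of the last ratio stood at 6.52 and the lowest sorafenib library at 6.58, and without replicate 4 of DMSO, the lowest at 5.86, the 7-day difference was 0.28.

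**Figure D3:**
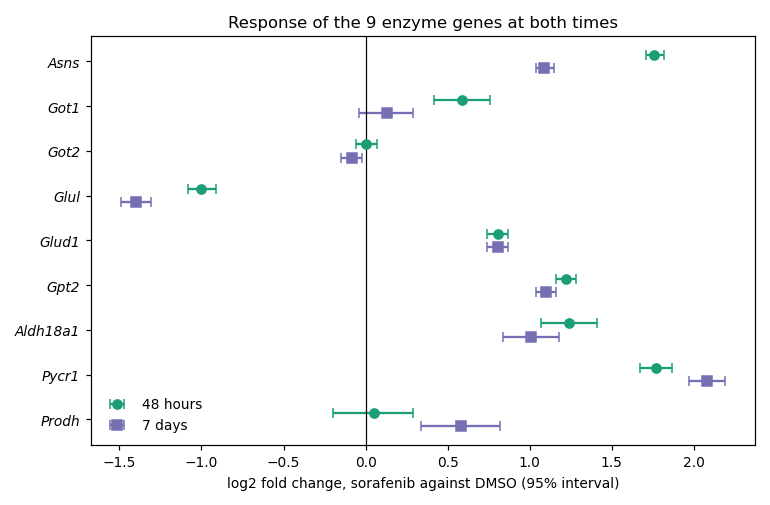
Log2 fold change of sorafenib against DMSO (x axis) for each of the 9 genes at 48 hours (green circles) and 7 days (purple squares), with bars for the 95% interval from edgeR. Values run from -1.40 for Glul at 7 days to 2.08 for Pycr1 at 7 days, and the 2 symbols coincide for Glud1. The bars are widest for Prodh (SE 0.123 at both times), the gene with the fewest counts. Those of Got1 and Aldh18a1 come next and include the library with lowered counts.

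Side by side over the 2 times, 6 of the 9 responses differed by the interaction test, where 36.8% of all genes did. Asns, Glul, Got1 and Gpt2 had negative differences (21.3% of all genes) and Pycr1 and Prodh positive ones (15.5%), while Glud1, Got2 and Aldh18a1 did not pass, the last in the fit that includes the lowered library. The control groups of the 2 times also differed, and here too time and culture batch cannot be told apart. With DMSO, 7 of the 9 genes differed between 48 hours and 7 days, 3 of them higher (Asns, Glud1 and Got1) and 4 lower (Glul, Gpt2, Pycr1 and Prodh), against 49.4% of all genes called, 23.9% as higher and 25.5% as lower. The Got1 call among these was lost without any 1 of 6 control libraries, all but replicates 1 and 4 at 7 days (FDR up to 0.0667). With sorafenib, 5 of the 9 differed, Glud1 higher and Glul, Got1, Gpt2 and Pycr1 lower, against 39.7% of all genes called, 17.5% as higher and 22.3% as lower. The libraries of the 2 times did not overlap for 7 of the 9 genes with DMSO and for 4 with sorafenib, as for 50.8% and 35.8% of all genes. None of the 9 reached a called difference of 1 on the log2 scale in the interaction or in either change over time, as 9.61%, 11.0% and 8.45% of all genes did. The Got1 call there (log2 fold change -0.22, FDR 0.0466) rested on groups that overlapped. It was lost without any 1 of 15 libraries (FDR up to 0.224) and was -0.35 (FDR 1.05e-14) without the lowered one.

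Levels were compared between genes per kilobase of exon, as normalized counts divided by the length of the union of a gene's exons. With DMSO at 48 hours the order was Aldh18a1 (1001 ± 21.4), Got2 (953 ± 25.5), Glud1 (571 ± 14.3), Glul (567 ± 12.7), Got1 (467 ± 7.42), Gpt2 (292 ± 5.87), Asns (247 ± 2.25), Pycr1 (127 ± 2.11) and Prodh (8.68 ± 0.586), where neither Aldh18a1 and Got2 nor Glud1 and Glul were apart in their libraries. With sorafenib at 48 hours Aldh18a1 led with 2364 ± 437, Asns had gone from the seventh place to the fourth (840.1 ± 28.1), and Glul had gone from the fourth to the eighth (284 ± 9.44). Glud1 and Got2, and Got1 and Gpt2, overlapped in that group. Got1 was below Gpt2 only in the library with lowered counts, which also widened the SD of Aldh18a1. At 7 days with sorafenib the order was the same and no neighbours overlapped, with Aldh18a1 at 2056 ± 38.9, Glud1 at 1238 ± 30.8, Got2 at 934 ± 17.9, Asns at 832 ± 2.62, Got1 at 602 ± 18.2, Gpt2 at 506 ± 2.99, Pycr1 at 308 ± 6.13, Glul at 167 ± 12.7 and Prodh at 9.47 ± 0.871. With DMSO at 7 days Asns stood at 390.2 ± 5.31, just after Glul at 439.6 ± 9.29, and Pycr1 at 72.8 ± 7. Prodh was last in all 4 groups. The order depends on the length used. With the length of the canonical transcript 22 of the 36 ranks stayed in place, and Got2 stood before Aldh18a1 in both DMSO groups (2088 against 1477 per kilobase at 48 hours and 2168 against 1505 at 7 days), as it did with the longest transcript.

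For the 5 enzymes that changed by 1 or more on the log2 scale at either time, the 3 genes nearest in pattern were sought among the 10660 genes whose counts averaged 100 or more over the libraries. Likeness was the root mean square difference of log2 CPM over the 16 libraries after centring each gene on its mean, and is a description over genes that share all libraries. Nearest to Asns were Cars, which encodes cysteinyl-tRNA synthetase (difference 0.072), Igfbp7, a secreted binding protein of insulin-like growth factors (0.0788), and Timp3, an inhibitor of matrix metalloproteinases (0.0804). Cars had log2 fold changes of 1.58 and 1.07 at 48 hours and 7 days. Nearest to Glul were Mxd4, a MAX-binding repressor (0.0854), the kinase gene Map3k1 (0.0867) and Sall2, a zinc finger factor (0.0888). Among the nearest to Gpt2 were Katnal1 (0.0917) and Reep6 (0.109). Nearest to Aldh18a1 were the lysyl oxidase gene Lox (0.0875), Atp6ap2 (0.123) and Rftn1 (0.128). Pycr1 had no neighbour as close, with Spon2 at 0.13, the deubiquitinase gene Otub2 at 0.15 and Trim46 at 0.196. Among the 9 enzymes themselves the closest pair was Aldh18a1 and Gpt2 (0.21). Replicate 2 of sorafenib at 48 hours entered this measure uncorrected, so genes of its lowered stretch, Aldh18a1 among them, share its low counts there. Neighbours were not sought without that library.

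The 9 genes were then placed among the other genes of their pathways, in 3 lists that hold 46 genes with them and 37 without. Of these 37, 34 were tested, and Aspa, Got1l1 and Prodh2 had too few reads. At 48 hours 17 of the 34 rose, 9 fell and 8 did not pass, with a median log2 fold change of 0.19, so that 76.5% were called where 54.6% of all genes were (26.9% as higher and 27.7% as lower). At 7 days 14 rose, 9 fell and 11 did not pass, with a median of 0.10, and 67.6% were called against 56.8% of all genes (28.9% as higher and 27.9% as lower). Both medians stand beside -0.05 and 0.02 over all genes. Whether the read numbers of the listed genes account for their larger shares of calls was not tested. The lists too were chosen with earlier results of these data known, which may enter these shares and medians. A called change of 1 or more on the log2 scale was found for 10 of the 34 at 48 hours, a larger share than the 18.0% of all genes, and for 5 of them at 7 days, a smaller share than the 20.6% of all genes.

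In the glutamine and glutamate list (16 genes, 3 of the 9 enzymes among them), 9 rose, 4 fell and 3 did not pass at 48 hours, and 8 rose, 5 fell and 3 did not pass at 7 days, so that 81.2% were called at either time beside the 54.6% and 56.8% of all genes. Gfpt2, which spends glutamine on hexosamine synthesis, went from 183 ± 14 to 397 ± 23.9 normalized counts at 48 hours (log2 fold change 1.11, FDR 7.61e-11) and from 183 ± 15.9 to 520.3 ± 24.1 at 7 days (1.51, FDR 2.77e-13). Psat1, the transaminase of serine synthesis, rose by 1.13 and 0.74 on the log2 scale (FDR 1.05e-09 and 4.50e-07), and by 1.26 at 48 hours without the lowered library. Gpt, the cytosolic counterpart of Gpt2, fell from 274 ± 16.5 to 128 ± 37.9 at 48 hours (log2 fold change -1.07, FDR 7.52e-07) and from 162 ± 15.2 to 109 ± 7.79 at 7 days (-0.56, FDR 0.00177). Gpt too lies in the lowered stretch, and its 48-hour value was -0.91 without that library (FDR 1.65e-11).

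In the asparagine and aspartate list 13 of 15 genes were tested. At 48 hours 8 rose, 2 fell and 3 did not pass, and at 7 days 5 rose, 3 fell and 5 did not pass, that is 76.9% and 61.5% called beside the same shares of all genes. The largest change was that of Ass1, argininosuccinate synthase, which joins aspartate to citrulline on the way to arginine. Its 4 libraries held 27.4, 31.2, 33.7 and 34.6 normalized counts with DMSO and 741, 812, 785 and 709 with sorafenib at 48 hours, and 49.7, 71.1, 71.6 and 87.2 against 782, 814, 749.5 and 748 at 7 days. As for Asns, the treated libraries were at one level and the controls higher at 7 days. Ass1 rose 23.9-fold (log2 fold change 4.58, SE 0.107, FDR 5.53e-18) and 10.9-fold (3.45, SE 0.0921, FDR 3.56e-17). Asl, the next enzyme, fell by 0.47 and 0.85 on the log2 scale (FDR 2.72e-07 and 5.70e-11), and is named here after its values were seen. Nars1, listed as Nars in the table, which loads asparagine onto its tRNA, rose by 1.57 and 1.21 (FDR 1.15e-11 and 5.49e-10), and by 1.70 at 48 hours without the lowered library. Ddo, D-aspartate oxidase, fell to 7, 10, 15 and 11 raw counts with sorafenib from 53 to 61 with DMSO at 48 hours (FDR 1.02e-05), and to 1, 1, 0 and 4 from 9 to 28 at 7 days (FDR 4.65e-05).

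In the proline and ornithine list 14 of 15 genes were tested, of which 6 rose, 4 fell and 4 did not pass at 48 hours, and 7 rose, 3 fell and 4 did not pass at 7 days, or 71.4% called at each time beside 54.6% and 56.8% of all genes. P4ha2, a collagen prolyl hydroxylase subunit that acts on proline within proteins, changed in opposite directions. It fell from 4233 ± 322 to 1346 ± 102 at 48 hours (log2 fold change -1.65, SE 0.0818, FDR 6.66e-13) and rose from 614 ± 109 to 1204 ± 18.9 at 7 days (0.98, SE 0.0871, FDR 6.16e-09). Between these times the controls fell by 2.79 on the log2 scale (FDR 2.78e-15), while the treated cells differed by -0.16 (FDR 0.146). Eprs1, listed as Eprs, which loads glutamate and proline onto their tRNAs, rose by 1.04 and 0.65 (FDR 7.59e-17 and 1.20e-13). Arg2, the mitochondrial arginase, was called lower at both times on at most 16 counts per library (log2 fold change -1.31, FDR 0.0308, and -1.34, FDR 0.0114).

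**Figure D4:**
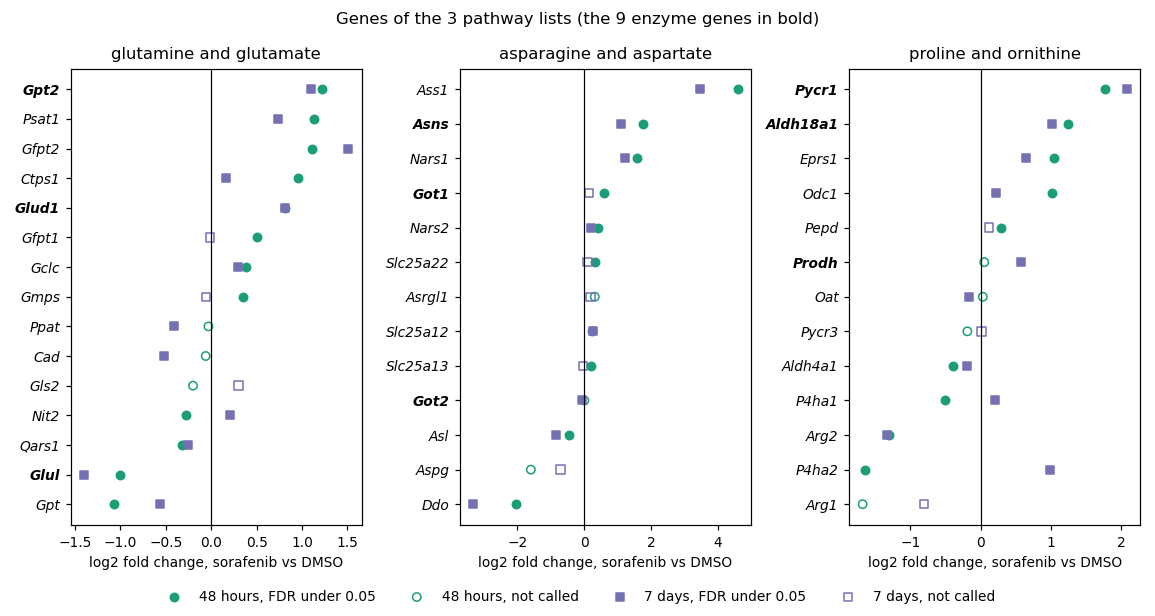
Log2 fold change of sorafenib against DMSO (x axes, a separate scale in each panel) for genes of the 3 pathway lists, ordered by the 48-hour value, with circles for 48 hours, squares for 7 days and open symbols where the FDR was not under 0.05. The 9 enzymes are in bold; Ass1 at 4.58 and 3.45 and Ddo at -2.03 and -3.32 span the widest range, and P4ha2 lies on opposite sides of 0 at the 2 times.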

How the data were processed

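RNA of p53-/-; Myc hepatoblasts was prepared with a stranded poly(A) kit. Per the labels, the authors aligned reads with STAR 2.7.1a to GRCm39, counted them per gene with featureCounts 2.0.6 and used DESeq2 1.40.2. The deposited values are raw counts of 40840 genes in 16 libraries. The annotation and the strand setting of the counting are not given in the sources used here, so reads of overlapping antisense genes may not have been told apart.

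Genes with at least 10 counts in total (20444) were fitted with edgeR 4.0.16 (R 4.3.3, TMM, quasi-likelihood, 1 coefficient per group, all 16 libraries), with Benjamini-Hochberg adjustment over all tested genes and calls at FDR under 0.05. SE is the absolute log2 fold change over the square root of the F statistic. Normalized counts are counts divided by the TMM library size relative to its geometric mean over libraries. Ratios are log2 with 0.5 added to each count and were tested by exact permutation over libraries. No 2 libraries of a group agreed within sampling noise (chi-square per gene 1.58 to 71.5, where 1 is sampling noise alone). Same-numbered libraries did not deviate together (correlations -0.047 to 0.122 over 8 pairs), so replicate numbers were not used as pairs. The step in replicate 2 of sorafenib at 48 hours was located with a least-squares change point along the genome.

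The 9 enzymes, the pathway lists and the markers were chosen with earlier results of these data known. Genes named beside the 9 are, of each list up to 3 called genes with the largest absolute log2 fold change at either time, and, for enzymes that changed by 1 or more on the log2 scale, the 3 genes nearest in pattern. Of the list genes, 5 were matched to the table by a synonym. Positions and lengths come from GENCODE vM39 on GRCm39. Promoter starts come from RefSeq and were placed on GRCm39 by exact match of the sequence, and copies are matches of at least 95% identity over at least 100 bases. Protein sequences were not analysed here, and a few genes, with the ratios that use them, are not reported here. Alternatives were DESeq2 1.42.0, limma 3.58.1 voom with sample weights, other scalings and filters, a replicate block, an offset for the lowered stretch, fits on 8 libraries and each library left out. The edgeR fit was tested on simulated data.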

Additional observations from a re-analysis of the deposited data

Results flagged for a closer look

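Some responses differed between the 2 times. By the interaction test of edgeR's quasi-likelihood fit, the response at 7 days minus that at 48 hours was -0.67 on the log2 scale for Asns (FDR 3.98e-11), -0.41 for Glul (FDR 4.32e-05), -0.47 for Got1 (FDR 0.00491), -0.12 for Gpt2 (FDR 0.0383), 0.31 for Pycr1 (FDR 0.00306) and 0.54 for Prodh (FDR 0.02). Among the other pathway genes named above it was 0.39 for Gfpt2 (FDR 0.00488), -0.39 for Psat1 (FDR 0.0169), 0.51 for Gpt (FDR 0.0444), -1.13 for Ass1 (FDR 1.63e-05), -0.36 for Nars1 (FDR 0.0314), 2.63 for P4ha2 (FDR 9.95e-13) and -0.40 for Eprs1 (FDR 1.57e-07). Of all genes tested, 36.8% had such a difference. Got1, Prodh, Psat1, Gpt and Nars1 lie in the stretch lowered in replicate 2 of sorafenib at 48 hours. Without that library their values were -0.59, 0.48, -0.53, 0.35 and -0.50, in that order.

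Some single libraries stood far from the rest of their group. Replicate 2 of sorafenib at 48 hours was the low library for Got1 (2616 normalized counts), Aldh18a1 (8887) and Psat1 (8748), all 3 within the stretch where its counts were lowered. Replicate 2 of sorafenib at 7 days was high for Gpt (121), replicate 3 of DMSO at 48 hours was high for the log2 ratio of Got1 to Got2 (-1.07), and replicate 4 of sorafenib at 48 hours was high for the log2 ratio of Glul to Glud1 (-2.50). These are 6 of 88 gene or ratio groups examined by Dixon's criterion (6.82%), where chance alone gives about 5%.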

How the results depend on the processing

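Over the alternative fits, no count of called enzymes or list genes moved by over 1.5 times, except when a change of 1 or more on the log2 scale was also required. That left 4 enzymes at 48 hours, 5 at 7 days and 0 for the interaction and both changes over time, and 14 list genes at 48 hours (4 of the glutamine, 4 of the asparagine and 6 of the proline list) and 10 at 7 days (3, 4 and 3). With the canonical transcript length, chosen after seeing the data, 22 of 36 ranks held.

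Of 396 checks of single enzymes, 340 kept direction and call, 17 lost the call, 10 gained it and 29 changed sign, all 29 near 0 and not called where the sign changed. The cause was not tested. Got2 at 48 hours became -0.013 (DESeq2), -0.014 (DESeq2 size factors), -0.069 (total counts only), -0.038 (at least 10 counts in every library), -0.023 (8 libraries) and -0.032 (offset). Prodh at 48 hours became -0.028 with total counts only. With total counts only, Got2 and Aldh18a1 over time with DMSO became -0.005 and -0.032 and the Got2 interaction 0.009. The Glud1 interaction became 0.014 with DESeq2 and with its size factors, 0.090 with total counts only, 0.063 with the filter on every library, 0.017 with voom and 0.020 with the offset. Over time with sorafenib, in the order DESeq2, its size factors, total counts only, the filter on every library and 8 libraries, Asns became 0.020, 0.019, 0.021, 0.039 and 0.026 and Got2 became 0.001, 0.002, 0.004, 0.022 and 0.008. Asns also became 0.011 with the offset and 0.000 with voom, and Prodh -0.050 with the offset. Calls gained with the offset for the lowered stretch were those of Got1 at 7 days (0.112, FDR 0.000755), the Aldh18a1 interaction (-0.365, FDR 1.03e-11) and Aldh18a1 over time with sorafenib (-0.337, FDR 1.35e-15), while the Prodh interaction was lost (0.412, FDR 0.0639). The other calls lost outside the block were Got2 at 7 days (FDR 0.186 with total counts only, 0.172 with no filter, 0.0833 with the filter on every library), the Gpt2 interaction (FDR 0.0657 with DESeq2 size factors, 0.773 with total counts only, 0.274 with the filter on every library), Got1 over time with DMSO (FDR 0.0634 with total counts only) and Got1 over time with sorafenib (FDR 0.113 with DESeq2, 0.0937 with its size factors, 0.0706 with total counts only, 0.055 with no filter, 0.118 with the filter on every library and 0.286 with 8 libraries). Total counts only moved the median of all genes by up to 0.094 on the log2 scale, and other scalings by less. The fit on 8 libraries gives no interaction.

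Leaving out 1 library at a time, values with a change of sign ran from -0.046 to 0.004 (Got2, 48 hours), -0.087 to 0.096 (Prodh, 48 hours), -0.020 to 0.042 (Glud1 interaction), -0.015 to 0.011 (Asns over time with sorafenib) and -0.038 to 0.007 (Got2 over time with sorafenib).

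With the replicate number as a block, 10644 genes were called at 48 hours and 11027 at 7 days, against 11158 and 11613 without it. Among the enzymes 3 calls were lost under the block, those of Got2 at 7 days (-0.083, FDR 0.0833), the Gpt2 interaction (-0.117, FDR 0.0918) and Got1 over time with sorafenib (-0.214, FDR 0.0654). The exact paired permutation test of the ratios on 4 pairs cannot go below p = 0.125. The numbers did not pair the libraries.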
